A study of Mus musculus with 8 samples.

Results

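The WNT ligands, their receptors and their antagonists were followed in Thy1-positive testis cells of newborn Glis3KO2 and WT mice. The genes were chosen by name: every probe whose RefSeq accession maps to a mouse symbol of the Wnt, Fzd, Sfrp, Dkk, Axin, Lgr or Rspo families. This gave 46 genes on 60 probes, of 41174 probes in all, and comprised 19 ligands, 10 Frizzled receptors, 8 secreted antagonists (4 secreted Frizzled-related proteins and 4 Dickkopf proteins), 4 R-spondins with 3 LGR receptors, and 2 axins. Of these 46 genes, 43 exceeded background clearly on 4 or more of the 8 arrays and were tested among 17508 genes. Dkk4, Wnt8a and Wnt16 were not.

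RNA came from 4 samples labelled Glis3KO2 and 4 wild type (WT) samples, all from C57BL/6 pups at postnatal day 4 that had stayed with their mothers and received no treatment. Glis3 encodes a zinc finger transcription factor, and the study concerns its part in spermatogenesis. Sorting on Thy1, a glycoprotein of the cell surface, is a common way to enrich progenitors of the male germ line. The deleted stretch of Glis3 and the number of animals behind each genotype are not stated in the labels. The design text counts 3 testes per genotype where the labels list 4 samples, so each p-value reflects only variation among these arrays, some of which may be technical.

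WNT proteins are lipid-modified secreted ligands that bind Frizzled receptors. In the canonical branch they stop a complex built on axin from destroying beta-catenin, which then acts with TCF and LEF factors in the nucleus, and other branches steer cell polarity and movement. Secreted Frizzled-related proteins bind the ligands, Dickkopf proteins block the LRP co-receptors, and R-spondins, through LGR receptors, keep Frizzled on the cell surface. In the mouse testis, WNT signals from supporting cells are known to act on undifferentiated spermatogonia.

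Values below are log2 of the processed signal divided by the array's 75th percentile, so that 0 is the 75th percentile of that array, and a difference is the Glis3KO2 mean minus the WT mean on this scale. Levels of different probes cannot be compared. The 75th percentile ranged from 251 to 458 units on Glis3KO2 arrays and from 243 to 533 units on WT arrays. Glis3 lay at -1.98, -2.18, -1.18 and -1.32 in Glis3KO2 replicates 1 to 4, against -1.09, -1.01, 0.57 and 0.60 in WT replicates 1 to 4, lower on every Glis3KO2 array, and the labels do not say if this probe targets the removed sequence. The first principal component (32.3% of the variance) set WT replicates 3 and 4 (69.1 and 60.0) apart from the other arrays, which lay at or below 3.87. The second (20.1%) set WT replicate 1 (80.8) apart from the others, at or below 3.18. Markers of undifferentiated spermatogonia were detected in both genotypes, with 10 of 12 well above background on all 8 arrays. So were 11 of 12 stroma markers (a list that includes Thy1 itself), 8 of 8 peritubular and smooth muscle markers, 10 of 10 Sertoli markers and 8 of 8 macrophage markers. In such samples fewer cells of a type and less RNA per cell cannot be told apart. On each slide the Glis3KO2 arrays took positions 3 and 4 and the WT arrays positions 1 and 2, so these places and the genotype cannot be told apart.

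No member of the WNT families passed an adjusted p under 0.05 by limma, and neither did any of the 17508 genes tested (0%, smallest adjusted p = 0.0676). At an unadjusted p under 0.05, limma gave 7 of the 43 members (16.3%), against 1208 of all genes (6.9%). Fzd6, Fzd1, Rspo3 and Wnt2 were the 4 with a higher mean in Glis3KO2, where 2.15% of all genes met this limit, and Wnt3, Sfrp5 and Rspo4 were the 3 with a lower mean, where 4.75% of all genes did. Rspo3 and Wnt2 were well above background on 4 Glis3KO2 arrays and 1 WT array each, so they entered the test through the genotype in which they are high. Over genes detected on all 8 arrays the count was 4 of 36 members (11.1%), namely Fzd1, Fzd6, Rspo4 and Sfrp5, against 6.65% of all genes. With normexp it was 4 of 43 members (9.30%), Fzd1, Fzd6, Rspo2 and Wnt3, against 9.36% of all genes, so the members' share was not above the background there. In 2 members, Fzd6 and Wnt2, every Glis3KO2 array lay above every WT array, which held for 0.902% of all genes. In another 2, Wnt3 and Sfrp5, every Glis3KO2 array lay below every WT array, which held for 2.6% of all genes. The adjusted p of these 7 members was 0.697 each. Each same-numbered pair of arrays correlated above 0.1 in its deviations, although replicates 3 and 4 did so across numbers too. Blocking on the replicate number, a pairing taken from these data alone, gave 12 members (27.9%) at an unadjusted p under 0.05, against 10.7% of all genes. These 12 included Rspo3 and Wnt2. They also included Wnt3a, well above background on 1 Glis3KO2 array and 4 WT arrays, which entered the test through WT, where it is high. Without WT replicate 2 the member count was 14 (all genes 13.7%), without Glis3KO2 replicate 2 it was 4 (all genes 4.99%), and without both WT replicates 3 and 4 it was 5 (all genes 4.40%).

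Over the 43 members the median difference was 0.08, against -0.08 over all genes, and 24 members (55.8%) had a higher mean in Glis3KO2, against 40.8% of all genes. This split depended on the background correction. With normexp 15 of 43 members (34.9%) had a higher mean, and the member median turned to -0.21. That setting also moved the median of all genes by -0.15, to -0.23, so the members lay 0.16 above all genes in the processed signal and 0.02 above them with normexp. Of the 43 members, 18 differed by less than 0.25 in either direction.

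**Figure D1:**
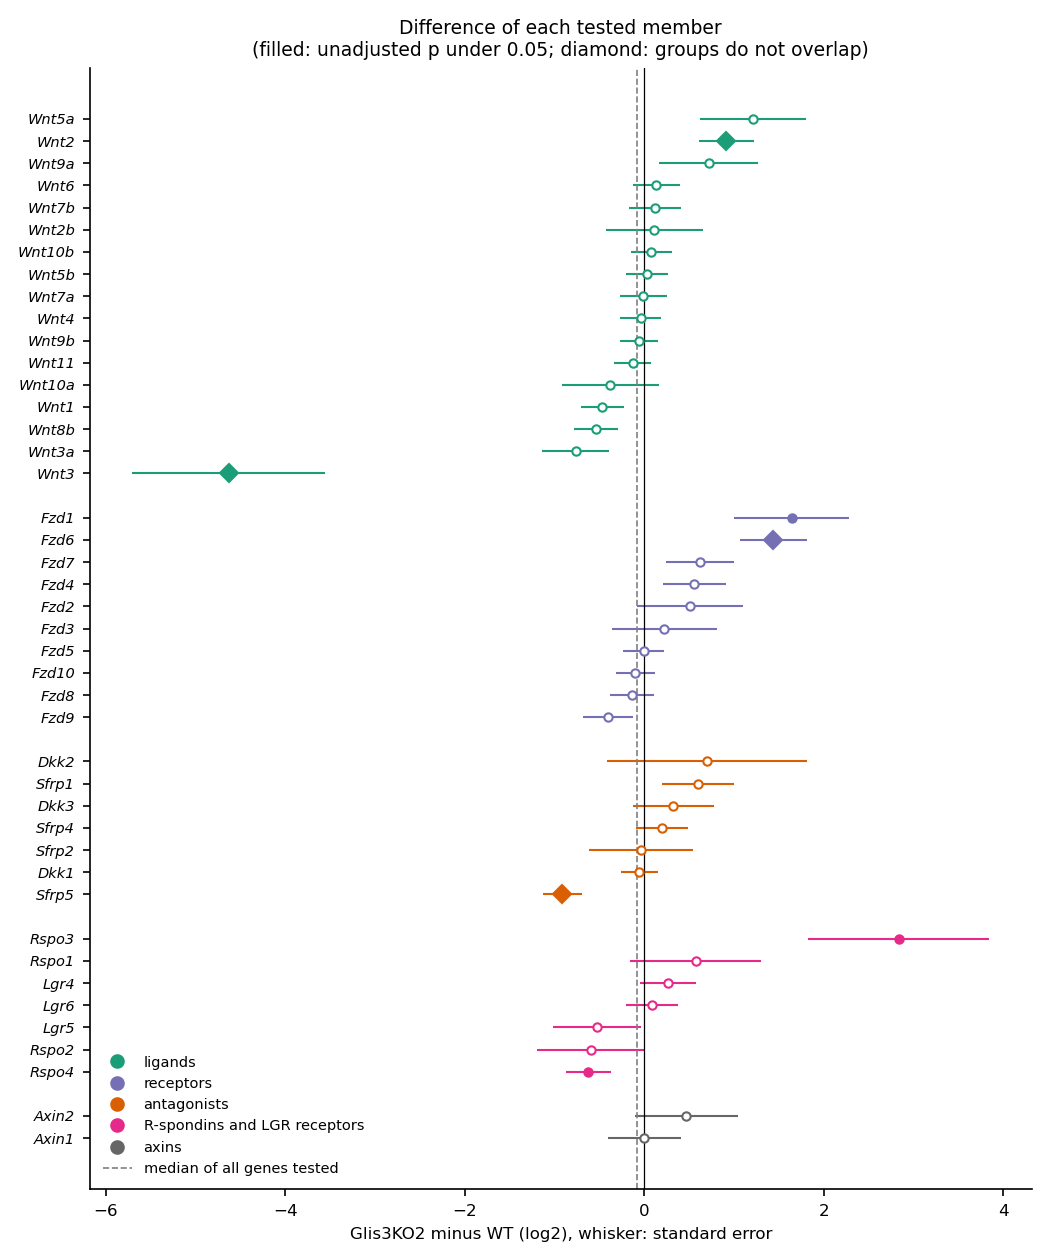
Difference between Glis3KO2 and WT in log2 signal for the 43 tested members, by role, with standard errors. Wnt3 at -4.63 and Rspo3 at 2.83 lie farthest from 0, and most other ligands lie close to it.

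Among the ligands, the mean of Wnt3 was lower in Glis3KO2 and that of Wnt2 higher, each without overlap between the groups, and Wnt5a was higher on average with overlapping groups. Promoters from RefSeq (GRCm38.p6) are shown for Wnt3, Sfrp5 and Wnt2, members whose groups did not overlap, the first 2 lower and the last higher in Glis3KO2. Each line gives 250 bases before the gene's start in lower case and 50 bases from the start on in capitals, 5′ to 3′ on the gene's strand.
Wnt3, chr11:103773925-103774224, plus strand: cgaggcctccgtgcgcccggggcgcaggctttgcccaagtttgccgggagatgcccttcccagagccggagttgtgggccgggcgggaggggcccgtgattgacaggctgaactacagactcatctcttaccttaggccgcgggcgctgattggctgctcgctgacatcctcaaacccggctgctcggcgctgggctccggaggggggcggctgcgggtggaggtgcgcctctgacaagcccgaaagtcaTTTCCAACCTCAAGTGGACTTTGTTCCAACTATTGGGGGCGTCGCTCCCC
Sfrp5, chr19:42202203-42202502, minus strand: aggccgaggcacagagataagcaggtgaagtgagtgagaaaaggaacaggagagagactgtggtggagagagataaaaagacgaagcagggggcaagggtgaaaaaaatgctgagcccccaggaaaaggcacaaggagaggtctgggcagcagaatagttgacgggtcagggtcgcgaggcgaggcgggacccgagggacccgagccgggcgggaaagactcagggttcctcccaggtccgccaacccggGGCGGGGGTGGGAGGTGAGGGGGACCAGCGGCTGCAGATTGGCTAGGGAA
Wnt2, chr6:18030396-18030695, minus strand: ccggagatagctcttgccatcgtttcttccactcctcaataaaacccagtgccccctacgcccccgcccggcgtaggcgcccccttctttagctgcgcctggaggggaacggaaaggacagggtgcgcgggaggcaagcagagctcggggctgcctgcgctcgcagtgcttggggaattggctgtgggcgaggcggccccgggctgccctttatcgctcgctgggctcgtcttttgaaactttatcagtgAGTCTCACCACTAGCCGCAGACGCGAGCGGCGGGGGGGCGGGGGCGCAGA

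These windows and those of the other members in the promoter table were searched on both strands for 3 motifs: the TCF and LEF core as CTTTGAT, the same core as CTTTGAA, which differs in its last letter, and a GLIS-type G-rich box, TGGGGGGT. The table held 33 promoters of 30 members. Missing from it, and so not searched, were Axin1, Dkk3, Dkk4, Fzd2, Fzd3, Fzd6, Fzd8, Lgr5, Rspo2, Rspo3, Sfrp1, Sfrp4, Wnt5a, Wnt7b, Wnt8a and Wnt10a. Fzd6, also without overlap between the groups, is not printed for this reason. None of the 3 printed windows held any of these motifs. CTTTGAT was found in Wnt11 and Wnt5b and in 3.73% of the 32851 promoters in the table, CTTTGAA in Dkk1 and in 5.14%, and TGGGGGGT in Wnt5b and in 1.53%. Dkk1, Wnt11 and Wnt5b differed by -0.06, -0.13 and 0.03, all within their standard errors of 0.21, 0.21 and 0.23.

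Wnt3 encodes a canonical ligand that the mouse embryo needs to form its primitive streak. Its signal was -4.81, -4.54, -7.18 and -4.14 in Glis3KO2 replicates 1 to 4, against 2.98, -1.90, -1.53 and -1.69 in WT replicates 1 to 4. Every Glis3KO2 array was thus below every WT array, 1 Glis3KO2 array was not well above background, and WT replicate 1 stood far above the other WT arrays. The means were -5.17 ± 1.37 in Glis3KO2 and -0.53 ± 2.35 in WT (SD, n = 4 each), and the difference of -4.63 (SE 1.07) was the most negative of all 17508 genes (limma adjusted p = 0.697). Without WT replicate 1 it was -3.46, within slide 1 -6.72 and within slide 2 -2.55, and with normexp -2.66. The Glis3KO2 signals were dim, so the size of this difference depends on values close to background. The other Wnt3 probe did not separate the groups. It read -3.59, -4.35, -7.21 and -4.55 in Glis3KO2 replicates 1 to 4, against -4.12, -4.08, -4.55 and -3.78 in WT replicates 1 to 4, a difference of -0.79 with Glis3KO2 replicate 3 far below the other arrays, and the mean over both probes gave -2.71.

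**Figure D2:**
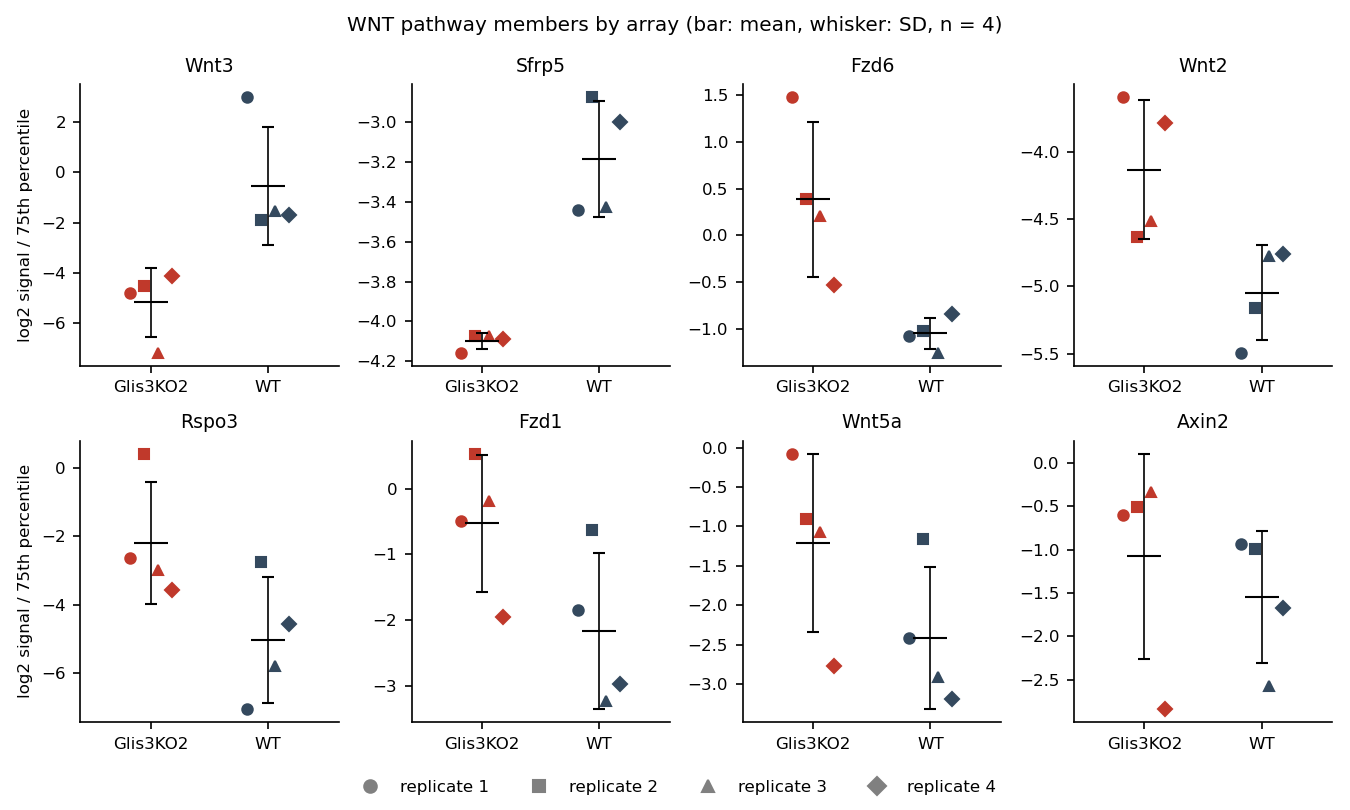
Log2 signal (0 is the array's 75th percentile) on each array for 8 members, with Glis3KO2 left of WT, replicates by symbol, group mean and SD. Wnt3, Sfrp5, Fzd6 and Wnt2 separate the groups, while Rspo3, Fzd1, Wnt5a and Axin2 overlap.

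Wnt2, a ligand that acts in lung specification, was dim. It lay at -3.60, -4.63, -4.51 and -3.79 in Glis3KO2 replicates 1 to 4, against -5.49, -5.16, -4.77 and -4.76 in WT replicates 1 to 4, with 4 of 4 Glis3KO2 arrays and 1 of 4 WT arrays well above background. The lowest Glis3KO2 array (-4.63) was only just above the highest WT array (-4.76). Its difference was 0.91 (SE 0.31), which kept its direction within slide 1 (1.08) and slide 2 (0.75) and turned to -0.44 with normexp. Wnt5a, the best known ligand of the non-canonical branch, had values of -0.08, -0.91, -1.07 and -2.77 in Glis3KO2 replicates 1 to 4, against -2.41, -1.16, -2.92 and -3.19 in WT replicates 1 to 4. It was higher in Glis3KO2 in 4 of 4 numbered pairs. The groups overlapped through Glis3KO2 replicate 4 alone, which lay below WT replicates 1 and 2. Its difference was 1.21 (SE 0.59), and 0.58 without both WT replicates 3 and 4.

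Lower means in Glis3KO2 were also seen for Wnt3a, Wnt8b and Wnt1, ligands best known from the axis and brain of the embryo, and none of the 3 reached an unadjusted p under 0.05. Wnt3a lay at -4.82, -5.57, -4.36 and -5.46 in Glis3KO2 replicates 1 to 4, against -4.06, -5.15, -3.69 and -4.26 in WT replicates 1 to 4, and stood clearly over background on 1 of 4 Glis3KO2 and 4 of 4 WT arrays. Wnt8b lay at -3.67, -4.33, -3.84 and -3.66 in Glis3KO2 replicates 1 to 4, against -3.11, -3.75, -3.15 and -3.33 in WT replicates 1 to 4, lower in all 4 pairs with a difference of -0.54 (SE 0.25). Wnt1 lay at -3.17, -3.65, -3.48 and -3.29 in Glis3KO2 replicates 1 to 4, against -2.74, -3.39, -2.66 and -2.94 in WT replicates 1 to 4, with a difference of -0.47 (SE 0.24). In each of these the groups overlapped, with WT replicate 2 the lowest WT array. Wnt3a and Wnt8b, but not Wnt1, reached an unadjusted p under 0.05 in the fit with a replicate block.

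Wnt6 and Wnt4 overlapped between the genotypes. Wnt6, which Sertoli cells of the adult mouse testis are known to make, lay at -2.13, -2.36, -1.51 and -1.87 in Glis3KO2 replicates 1 to 4, against -2.00, -2.60, -1.88 and -1.92 in WT replicates 1 to 4, a difference of 0.14 (SE 0.27). Wnt4, a ligand of ovarian development, lay at -2.48, -2.21, -1.86 and -2.08 in Glis3KO2 replicates 1 to 4, against -1.91, -2.08, -2.42 and -2.05 in WT replicates 1 to 4, a difference of -0.04 (SE 0.23). All 8 arrays of Wnt4 fell within -2.48 to -1.86. The other tested ligands differed by 0.72 (Wnt9a, SE 0.55), -0.38 (Wnt10a, SE 0.54) and, for Wnt2b, Wnt5b, Wnt7a, Wnt7b, Wnt9b, Wnt10b and Wnt11, by -0.13 to 0.12. Wnt8a was detected clearly on 0 of 4 Glis3KO2 arrays and 2 of 4 WT arrays, with signals of -4.82, -5.38, -5.64 and -5.03 in Glis3KO2 replicates 1 to 4, against -4.22, -5.70, -4.46 and -4.58 in WT replicates 1 to 4. Its mean WT signal was 1.26-fold higher in a comparison that raised only the Glis3KO2 side. Each Glis3KO2 array counts there at its own Wnt8a signal or at the array's lowest clearly detected probe, whichever is brighter. The WT arrays count at their own signals, 2 of them not well above background, so this is no lower bound. The groups overlapped, with WT replicate 2 the lowest of the 8 arrays, and the gene was not tested. Wnt16 was clearly detected on 0 of 4 Glis3KO2 and 1 of 4 WT arrays.

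The Frizzled receptors held 2 of the 7 members, Fzd6 and Fzd1, both with a higher mean in Glis3KO2. Fzd6, a receptor known for tissue polarity in hair and skin, lay at 1.48, 0.39, 0.21 and -0.53 in Glis3KO2 replicates 1 to 4, against -1.08, -1.02, -1.26 and -0.85 in WT replicates 1 to 4. All 4 Glis3KO2 arrays exceeded all 4 WT arrays, with replicate 1 the highest, and the WT arrays lay close together. The means were 0.39 ± 0.83 in Glis3KO2 and -1.05 ± 0.17 in WT (SD, n = 4 each), a difference of 1.44 (SE 0.38), which is 2.71-fold (limma adjusted p = 0.697). It was 1.05 with normexp, 1.07 without Glis3KO2 replicate 1 and 1.44 without both WT replicates 3 and 4, and it had an unadjusted p under 0.05 in each of the 16 alternatives. Fzd6 had 1 probe, as had Fzd1, Rspo3, Wnt2 and Sfrp5, so no alternative could try a further probe of these genes. Fzd1 lay at -0.50, 0.53, -0.19 and -1.96 in Glis3KO2 replicates 1 to 4, against -1.85, -0.63, -3.23 and -2.97 in WT replicates 1 to 4. It was higher in Glis3KO2 in 4 of 4 pairs, but WT replicate 2 was higher than Glis3KO2 replicate 4. Its difference of 1.64 (SE 0.64) was 0.92 with normexp and 0.71 without both WT replicates 3 and 4.

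Fzd7, a receptor of stem and progenitor cells in several tissues, lay at 1.41, 1.82, 1.33 and 0.62 in Glis3KO2 replicates 1 to 4, against 0.77, 1.21, 1.02 and -0.31 in WT replicates 1 to 4, higher in 4 of 4 pairs with a difference of 0.62 (SE 0.38). Without WT replicate 4 it was 0.29. Its other probe differed by 0.55. Fzd4, also the receptor of norrin in the retina, differed by 0.56 (SE 0.35), Fzd2 by 0.51 (SE 0.59) and Fzd9 by -0.41 (SE 0.28), and Fzd3, Fzd5, Fzd8 and Fzd10 by -0.14 to 0.22. Fzd10 lay at 0.35, 0.08, 0.37 and 0.42 in Glis3KO2 replicates 1 to 4, against 0.45, 0.06, 0.67 and 0.44 in WT replicates 1 to 4, with no visible separation. Its other probe varied far more and differed by 0.94, with means of -1.13 ± 0.93 in Glis3KO2 and -2.08 ± 1.25 in WT (SD, n = 4 each). Fzd2 also differed more on its other probe than on the probe used. That other probe read -0.04, 1.17, 0.05 and -0.78 in Glis3KO2 replicates 1 to 4, against -1.22, -0.01, -3.56 and -1.34 in WT replicates 1 to 4, a difference of 1.63, higher in 4 of 4 pairs. All 12 members with more than 1 probe had more than 1 kept, and in 7 of these 12 the kept probes differed in sign.

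**Figure D3:**
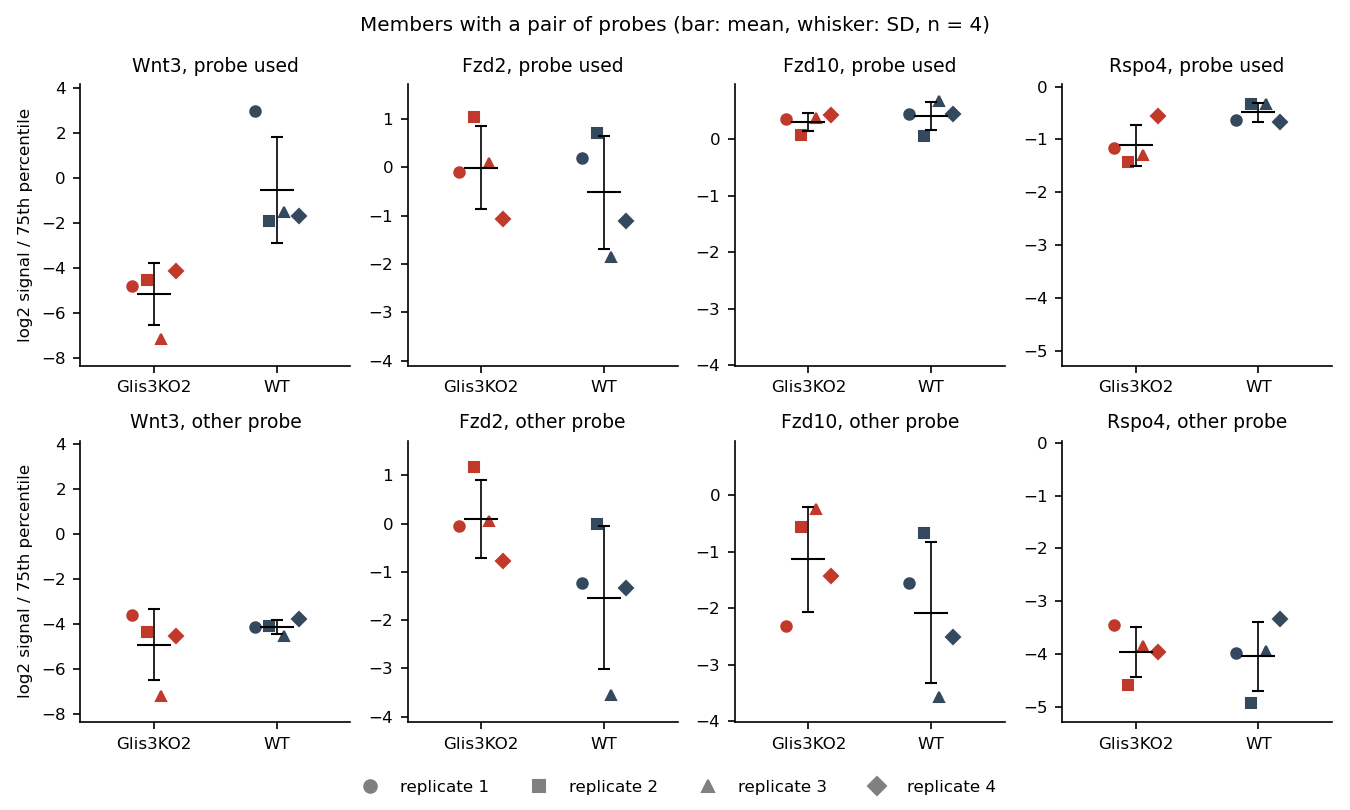
Log2 signal (0 is the array's 75th percentile) for 4 members with a pair of probes, the probe used above and the other below, on a shared axis per gene (Glis3KO2 left, WT right, mean and SD). Wnt3 and Rspo4 separate or nearly separate on the probe used only, and Fzd2 and Fzd10 differ more on the other probe.

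Of the antagonists, Sfrp5 had a lower signal in Glis3KO2 and the groups overlapped in the other tested ones. Sfrp5, a secreted decoy of WNT ligands, lay at -4.16, -4.07, -4.07 and -4.09 in Glis3KO2 replicates 1 to 4, against -3.44, -2.87, -3.43 and -3.00 in WT replicates 1 to 4. The Glis3KO2 arrays fell within a range narrower than the gap to the nearest WT array, and all 8 were well above background. The means were -4.10 ± 0.04 in Glis3KO2 and -3.18 ± 0.29 in WT (SD, n = 4 each), a difference of -0.91 (SE 0.22), or 1.88-fold lower (limma adjusted p = 0.697). It was -0.68 within slide 1 and -1.15 within slide 2, ranged from -0.999 to -0.81 with single arrays left out, and had an unadjusted p under 0.05 in 15 of 16 alternatives, the exception being normexp (-0.81). Sfrp5 was measured by 1 probe only. Sfrp1 lay at 0.54, 0.96, 0.15 and -0.54 in Glis3KO2 replicates 1 to 4, against -0.58, 0.58, -0.28 and -0.9996 in WT replicates 1 to 4, higher in 4 of 4 pairs with a difference of 0.60 (SE 0.40), or 0.37 without Glis3KO2 replicate 2. Sfrp2 lay at 4.32, 7.16, 4.55 and 5.22 in Glis3KO2 replicates 1 to 4, against 4.58, 5.87, 5.31 and 5.65 in WT replicates 1 to 4, where Glis3KO2 replicate 2 was the highest array and the difference was -0.04 (SE 0.58). Sfrp4 differed by 0.20 (SE 0.29). Of the Dickkopf genes, Dkk3, a divergent member of the family, differed by 0.33 (SE 0.45) and Dkk1, an inhibitor of LRP co-receptors, by -0.06 (SE 0.21). Dkk2 was well above background on 2 arrays of each genotype and differed by 0.70 (SE 1.11). Dkk4 was not well above background on any array.

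Of the R-spondins and their receptors, Rspo3 had a higher mean in Glis3KO2 and Rspo4 a lower one. Rspo3, an R-spondin of vascular and placental development, lay at -2.64, 0.41, -2.98 and -3.57 in Glis3KO2 replicates 1 to 4, against -7.04, -2.74, -5.79 and -4.55 in WT replicates 1 to 4. All 4 Glis3KO2 arrays and 1 of 4 WT arrays were well above background, Glis3KO2 replicate 2 was by far the highest, and the groups overlapped through WT replicate 2. The difference was 2.83 (SE 1.01), set against 3 WT arrays not well above background, and each of the 4 pairs was higher in Glis3KO2. It was 1.97 without Glis3KO2 replicate 2, 2.16 without WT replicate 1 and 0.56 with normexp. Rspo4, which is needed for nail formation in humans, lay at -1.16, -1.44, -1.30 and -0.55 in Glis3KO2 replicates 1 to 4, against -0.64, -0.33, -0.33 and -0.66 in WT replicates 1 to 4. Glis3KO2 replicates 1 to 3 were below all WT arrays and Glis3KO2 replicate 4 was among them, for a difference of -0.62 (SE 0.25). Its other probe differed by 0.09, and the mean over both by -0.27.

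Rspo1, the R-spondin of ovarian determination, lay at -1.36, 0.03, -3.12 and -1.17 in Glis3KO2 replicates 1 to 4, against -2.03, -0.30, -3.41 and -2.18 in WT replicates 1 to 4. Its arrays ran in parallel by replicate number, each pair being higher in Glis3KO2, and its difference of 0.58 (SE 0.73) reached an unadjusted p under 0.05 only with the replicate number as a block. Without Glis3KO2 replicate 2 it was 0.10. Rspo2 differed by -0.59 (SE 0.60). Lgr4, an R-spondin receptor that the mouse needs for development of the male reproductive tract, lay at 1.20, 1.45, 0.82 and 0.20 in Glis3KO2 replicates 1 to 4, against 1.15, 0.31, 0.73 and 0.42 in WT replicates 1 to 4, a difference of 0.26 (SE 0.32). Its other probes differed by 0.54 and -0.40. Lgr6 lay at 0.90, 0.47, 1.41 and 1.17 in Glis3KO2 replicates 1 to 4, against 1.41, 0.92, 0.43 and 0.86 in WT replicates 1 to 4, a difference of 0.08 (SE 0.29). Lgr5, a target gene and a stem cell marker of the intestine, was near background at -4.52, -6.08, -4.67 and -5.35 in Glis3KO2 replicates 1 to 4, against -5.07, -5.65, -3.57 and -4.20 in WT replicates 1 to 4, well above it on 2 arrays of each genotype.

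Axin2, a scaffold of the destruction complex and a widely used target gene of beta-catenin, lay at -0.60, -0.51, -0.34 and -2.84 in Glis3KO2 replicates 1 to 4, against -0.94, -0.99, -2.57 and -1.67 in WT replicates 1 to 4. Glis3KO2 replicates 1 to 3 were above all WT arrays and Glis3KO2 replicate 4 was below all of them. The difference was 0.47 (SE 0.58). It was 1.06 without Glis3KO2 replicate 4, with an unadjusted p under 0.05 there, and -0.11 without both WT replicates 3 and 4. Axin1, the constitutive scaffold, had means of -2.93 ± 0.23 in Glis3KO2 and -2.93 ± 0.91 in WT (SD, n = 4 each).

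The other genes of the pathway were read through lists of known members. Of 13 known target genes tested, 12 had a higher mean in Glis3KO2 (92.3%), against 40.8% of all genes. Their median difference was 0.47, against -0.08 over all genes, and 0 of them had an unadjusted p under 0.05. The count depends on the list, since target genes counted elsewhere here went both ways: Axin2 0.47, Lgr5 -0.53 and Tcf7 -0.72. The list's mean, centred per gene over the 8 arrays, was 0.40, 0.72, 0.15 and -0.40 in Glis3KO2 replicates 1 to 4, against 0.08, 0.34, -0.69 and -0.59 in WT replicates 1 to 4. Without WT replicates 3 and 4 its difference was 0.0074, against 0.43 with them. Of 20 genes of the intracellular beta-catenin chain 13 were higher and 7 lower (median 0.06), and 0 had an unadjusted p under 0.05. The same held for the 5 co-receptors (2 higher, 3 lower) and the 4 secretion genes (2 higher, 2 lower).

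Of 13 nuclear factors, 4 were higher and 9 lower, where 40.8% of all genes were higher, and 1 in each direction had an unadjusted p under 0.05, against 2.15% of all genes on the higher and 4.75% on the lower side. Tcf7, a TCF factor that is itself a target gene, lay at 1.37, 1.63, 1.63 and 1.51 in Glis3KO2 replicates 1 to 4, against 2.35, 1.93, 2.24 and 2.50 in WT replicates 1 to 4. Every Glis3KO2 array was below every WT array, for a difference of -0.72 (SE 0.21). This difference was -0.59 as the mean over its kept probes. With normexp it was -0.54, without an unadjusted p under 0.05. Tcf7l1, mainly a repressor, lay at -1.23, -0.27, -0.98 and -0.64 in Glis3KO2 replicates 1 to 4, against -2.51, -0.69, -1.75 and -1.87 in WT replicates 1 to 4, higher in 4 of 4 pairs with a difference of 0.93 (SE 0.38). As the mean over its kept probes the difference was 0.69, and with normexp 0.51, neither with an unadjusted p under 0.05. Of 13 other antagonists and turnover genes 5 were higher (38.5%) and 8 lower. A higher mean with an unadjusted p under 0.05 was found for 1 of them (7.69%), against 2.15% of all genes. Rnf43, a ubiquitin ligase that removes Frizzled and is held back by R-spondins, lay at -2.58, -2.27, -3.47 and -2.09 in Glis3KO2 replicates 1 to 4, against -3.07, -3.22, -5.12 and -4.41 in WT replicates 1 to 4. It was higher in 4 of 4 pairs with a difference of 1.35 (SE 0.49), 0.55 without both WT replicates 3 and 4 and -0.13 with normexp. Of 22 genes of the planar polarity and calcium branch 15 were higher (68.2%, all genes 40.8%) and 7 lower. A higher mean with an unadjusted p under 0.05 was found for 1 of them (4.55%, all genes 2.15%). Vangl2, a core polarity protein, differed by 0.73 (SE 0.29), higher in 4 of 4 pairs, and by 0.365 with normexp, without an unadjusted p under 0.05 there. The adjusted p was 0.697 for each of these 4 genes (limma).

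**Figure D4:**
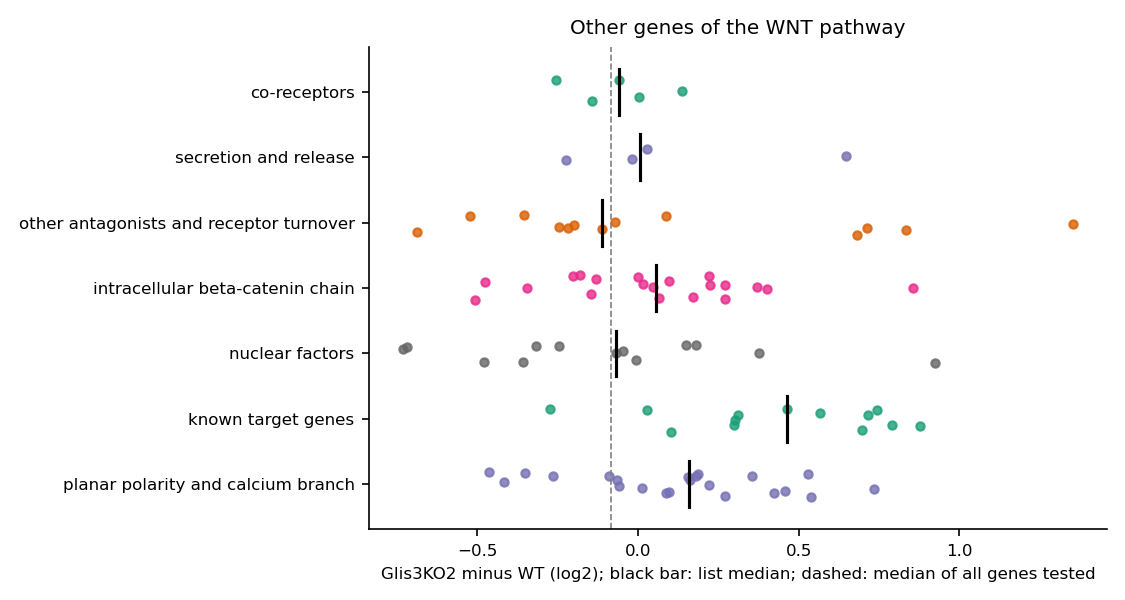
Difference between Glis3KO2 and WT (log2) for each tested gene of 7 lists of other WNT pathway genes (points, spread vertically for legibility), with the list median as a bar and the median of all genes as a dashed line at -0.08. The target gene median lies at 0.47 and the other medians between -0.11 and 0.16.

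Marker lists of other cells also had unequal means between the same arrays. Of the stroma markers 12 of 12 had a higher mean in Glis3KO2, and their summed signal was 93.8 to 345 times the 75th percentile in Glis3KO2 and 40.4 to 171 times in WT. Thy1, the protein sorted on, is counted among these 12 and differed by 0.65 (SE 0.44). Such sums are weighted towards the brightest probes of a list. The centred stroma mean was 0.10, 1.68, 0.21 and -0.02 in Glis3KO2 replicates 1 to 4, against -0.61, 0.78, -0.98 and -1.15 in WT replicates 1 to 4. Fzd1 and Wnt5a were likewise highest on WT replicate 2 and lowest on WT replicates 3 and 4 among the WT arrays, while Rspo3 was also highest on WT replicate 2 but lowest on WT replicate 1. Fzd6 and Wnt2 did not share this order. Both were highest on WT replicate 4 among the WT arrays, and Wnt2 was higher on WT replicates 3 and 4 than on WT replicates 1 and 2. Among the Glis3KO2 arrays the stroma list, Fzd1 and Rspo3 were highest on replicate 2. Wnt5a, Fzd6 and Wnt2 were highest there on replicate 1, so Wnt5a shared the stroma order on the WT arrays only. The peritubular and smooth muscle markers were higher in 8 of 8, with summed signals of 56.1 to 185 in Glis3KO2 and 34.5 to 113 in WT. The markers of undifferentiated spermatogonia were lower in 12 of 12, with summed signals of 5.87 to 7.22 in Glis3KO2 and 7.49 to 14.1 in WT, and their centred mean was -0.49, -0.39, -0.21 and -0.41 in Glis3KO2 replicates 1 to 4, against -0.13, -0.02, 0.85 and 0.79 in WT replicates 1 to 4. General germ cell markers were lower in 7 of 7 (sums 23.4 to 40.9 in Glis3KO2 and 23.1 to 97.3 in WT), macrophage markers higher in 8 of 8 (16.8 to 40.9 and 10.4 to 37.2), and Sertoli markers lower in 7 of 10 (18.5 to 29.1 and 21.8 to 34.3). Leydig markers were lower in 4 of 5 (16.6 to 20.2 in Glis3KO2 and 8.86 to 65.6 in WT) and endothelial markers in 3 of 6 (2.92 to 5.89 and 1.97 to 4.47). No marker tested lacked signal well above background in a whole group. Without both WT replicates 3 and 4 the mean difference was 0.41 for stroma (with them 0.98), 0.45 for peritubular and smooth muscle (1.14), -0.30 for undifferentiated spermatogonia (-0.75), -0.09 for general germ cell markers (-0.81), -0.21 for macrophages (0.48), 0.17 for Sertoli cells (-0.21), -0.67 for Leydig cells (-0.17) and -0.24 for endothelial cells (0.02), so that the macrophage, Sertoli and endothelial lists turned direction. The part of these shifts in the differences of the WNT members was not tested.

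**Figure D5:**
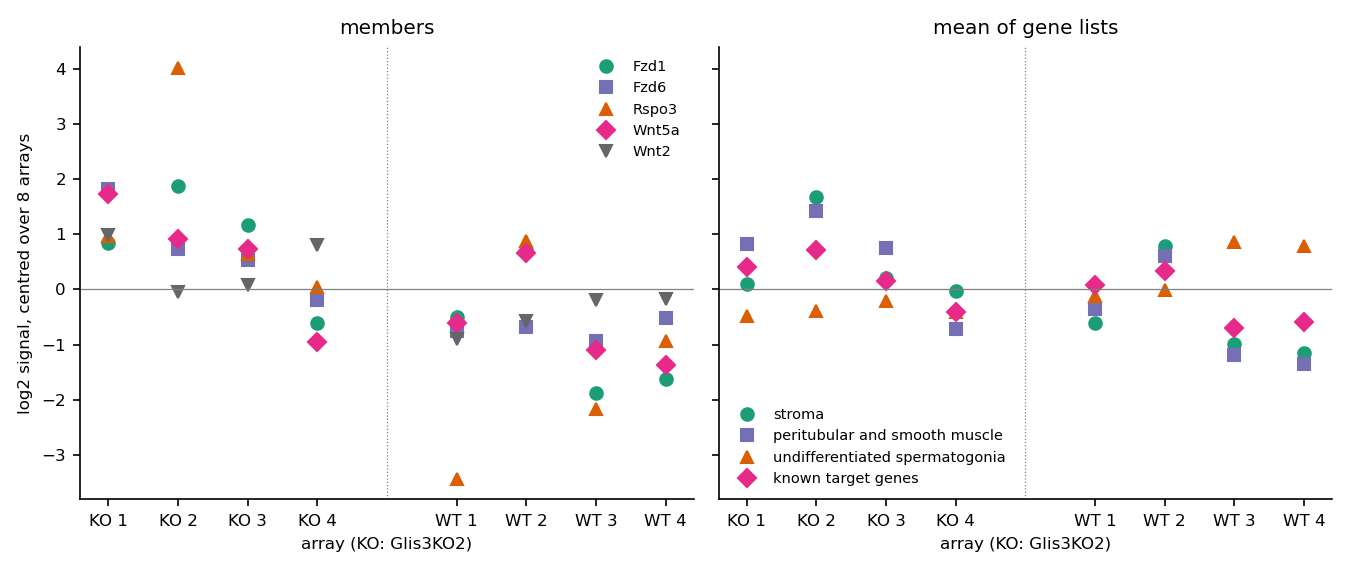
Log2 signal of 5 members with a higher mean in Glis3KO2 (left) and the mean of 4 gene lists (right), each gene centred over the 8 arrays, with the Glis3KO2 arrays left of the WT arrays. WT replicate 2 is high and WT replicates 3 and 4 are low for Fzd1, Wnt5a and the stroma list, while the spermatogonial list is highest on WT replicates 3 and 4. Fzd6 and Wnt2 are highest on WT replicate 4 among the WT arrays. Among the Glis3KO2 arrays the stroma list is highest on replicate 2 and Wnt5a on replicate 1.

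The members also differed in how much they varied over the 8 arrays. In 13 of 43 the range was under 1, among them Wnt11, Wnt4, Wnt5b, Wnt9b, Fzd5, Fzd8, Dkk1 and Sfrp4. In 18 it was over 2, among them Fzd1, Fzd2, Fzd6, Fzd7, Rspo1, Rspo3, Wnt5a, Sfrp2 and Axin2. The widest range, 10.2, belonged to Wnt3.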

How the data were processed

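Total RNA was amplified (NuGEN Ovation Pico WTA) and the cDNA labelled with Agilent's SureTag kit, per the labels' protocols, and amplification can distort relative signal. The arrays were scanned in 1 colour and quantified, per the file headers, by Feature Extraction 12.0.0.7. The values used are the deposited processed intensity of each spot, after the scanner software's own subtraction and detrending, and its deposited detection, saturation and outlier flags. The series' deposited value table repeats these intensities on 100% of spots. Agilent annotated its probes on mm9, per the file headers, and no probe coordinate is given.

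Each array's log2 intensities were set relative to the 75th percentile of its spots other than controls. Repeated spots of a probe were then averaged without outlier spots. No member spot was saturated. RefSeq accessions were looked up in a GRCm38.p6 gene table, where 28223 of 41174 probes matched 1 gene, 0 several, and 12951 none. A probe was kept if detected over background on 4 or more of 8 arrays, and the brightest kept probe stood for its gene. Genotype was fitted over 17508 genes with limma 3.58.1 in R 4.3.3 (lmFit, eBayes, Benjamini-Hochberg adjustment, threshold 0.05), tested on simulated data. With 4 arrays a group, their number limits the precision.

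Same-numbered arrays of both genotypes deviated together from their group means (r = 0.16, 0.34, 0.18 and 0.13 across genes, which are not independent replicates). Glis3KO2 replicate 4 correlated as much with WT replicate 3 (0.14) and Glis3KO2 replicate 3 with WT replicate 4 (0.12), so these numbers are not resolved from each other, and all other crossed pairs lay at or below 0.013. As every numbered pair exceeded 0.1, the numbers were taken as pairs, on the data alone, and a replicate block was fitted beside the main model. Values on all arrays are given for the 12 members of smallest p, the 6 of highest mean, those without overlap, those dark in 1 genotype but detected on 2 or more arrays of the other, and Axin2, Wnt6, Wnt4, Wnt5a, Lgr5, Lgr4, Rspo1 and Sfrp1. Other pathway genes are named at an unadjusted p under 0.05. Members, lists and alternatives were chosen with earlier results of these data known. The alternatives were normexp (offset 50, on the median spot signal), quantile normalization, 2 other filters on dim probes, the mean over probes, a slide block, a replicate block, single arrays left out, and WT replicates 3 and 4 left out together. Lrp5, Tiki1, Frzb, Shisa3, Shisa6, Ccnd1, Dact3, Sycp3 and Insl3 did not enter the tests.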

Additional observations from a re-analysis of the deposited data

Results flagged for a closer look

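Single arrays stood far from the other 3 of their genotype in 5 of 94 groups examined (47 genes in both genotypes, Dixon's criterion, which chance alone meets in about 5% of groups, or 4.7 here). Axin2 on Glis3KO2 replicate 4 was low at -2.84, against -0.60 to -0.34 on the other Glis3KO2 arrays. Sfrp5 on Glis3KO2 replicate 1 was low at -4.16, against -4.09 to -4.07, within a group whose whole spread was small. Wnt3 on WT replicate 1 was high at 2.98, against -1.90 to -1.53 on the other WT arrays. Dkk3 on WT replicate 3 was low at -2.53, against -0.84 to -0.60, and Wnt6 on WT replicate 2 was low at -2.60, against -2.00 to -1.88. No explanation was tested for these values.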

How the results depend on the processing

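The count of all genes past the threshold was 0 in every setting but quantile normalization, where 1 gene that is no WNT member (Gm16702) passed. The count of members at an unadjusted p under 0.05, 7 as reported, was 4 with normexp (9.30%, all genes 9.36%), 4 of 36 with only probes well above background on all 8 arrays (11.1%, all genes 6.65%), 12 with the replicate block and 4 to 14 with single arrays left out. The count over all genes, 1208 as reported, was 1877 with the replicate block, 770 without both WT replicates 3 and 4, and 663 (without WT replicate 3) to 2407 (without WT replicate 2) with single arrays left out. The member median of 0.08 was -0.21 with normexp and 0.00297 (without WT replicate 1) to 0.10 with single arrays left out. The slide and replicate blocks are balanced over the genotypes and so alter the errors, not the differences. The differences of 47 genes (members and named pathway genes) were followed for changes of sign. With normexp the turned ones were Axin1 -0.47, Dkk2 -0.21, Fzd3 -0.056, Fzd4 -0.083, Sfrp2 0.22, Sfrp4 -0.35, Wnt10b -0.59, Wnt2 -0.44, Wnt5b -0.19, Wnt6 -0.35, Wnt7b -0.21 and Rnf43 -0.13. With quantile normalization it was Wnt7a 0.010, and averaging all kept probes of each gene gave Dkk1 0.12, Fzd10 0.42 and Wnt5b -0.061. With single arrays left out 17 of 47 differences changed sign at least once, and without both WT replicates 3 and 4 it was 15 of 47. Over both kinds of omission the ranges were Axin1 -0.27 to 0.34, Fzd5 -0.12 to 0.11, Sfrp2 -0.65 to 0.29, Wnt10b -0.048 to 0.16, Wnt4 -0.16 to 0.068, Wnt9b -0.14 to 0.030, Dkk1 -0.14 to 0.032, Dkk2 -0.44 to 1.44, Wnt2b -0.19 to 0.56, Wnt5b -0.092 to 0.19, Wnt7a -0.14 to 0.23, Lgr6 -0.18 to 0.26, Wnt6 -0.031 to 0.33, Wnt7b -0.039 to 0.39, Wnt10a -0.82 to 0.16, Fzd3 -0.35 to 1.27, Dkk3 -0.15 to 0.57, Axin2 -0.11 to 1.06, Fzd10 -0.21 to 0.050, Fzd2 -0.46 to 0.92, Fzd8 -0.31 to 0.076, Lgr5 -0.87 to 0.21, Rspo1 -0.24 to 1.15, Rspo2 -1.15 to 0.36 and Sfrp4 -0.059 to 0.39. The cause was not tested. With 4 arrays a group, 0 calls among all genes limit what can be said of any member. Signal close to background limits the dim probes (Wnt2, Wnt3a, Lgr5, Dkk2, Rspo3 in WT and Wnt3 in Glis3KO2).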

Other observations

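The probes that do not stand for their gene held a few values outside the comparisons above. The other Fzd5 probe was lower on every Glis3KO2 array, at -1.94, -2.03, -1.76 and -1.71 in Glis3KO2 replicates 1 to 4, against -1.56, -1.64, -1.71 and -1.66 in WT replicates 1 to 4, a difference of -0.22, though Glis3KO2 replicate 4 and WT replicate 3 round to the same value, while the probe used differed by -0.0054. The other Sfrp1 probe read 0.58, 1.01, -0.99 and -0.33 in Glis3KO2 replicates 1 to 4, against -1.55, 0.78, -1.30 and -0.73 in WT replicates 1 to 4, a difference of 0.77 in the direction of the probe used. The other Wnt9a probe differed by -0.29, against 0.72 on the probe used. These probes were not tested, and they were singled out after their values were seen.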
